A study of Rattus norvegicus with 16 samples.

Results

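Transcripts of 10 acute phase proteins were followed in cultured rat hepatocytes: the fibrinogen chains Fga, Fgb and Fgg, and Hp, C3, Orm1, A2m, Crp, Lbp and Lcn2. The 10 genes were picked by name, as plasma proteins of the acute phase response, with earlier results of these data known. They were found on the arrays through the RefSeq accession that each probe carries and were 10 of 20792 genes tested. All 10 had a probe that passed the filter on dim probes, and that probe was well above background in all 32 colour channels of the 16 arrays, so no member was measured only where it was high. There were 11 probes in all: A2m had 2 and the other 9 members had 1 each.

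The cells were primary hepatocytes from male Sprague Dawley rats in Williams Medium E. At 48 hours after plating they received 100 µM SQ1 or 30 µM pravastatin, or were left untreated, and RNA was taken after 48 hours of treatment. SQ1 is a code name; in work on hepatocytes it stands for squalestatin 1, which blocks squalene synthase, while pravastatin blocks HMG-CoA reductase, an earlier enzyme of the same sterol pathway. The doses differed, so a difference between the drugs is one between these treatments as they were given. Each array held RNA of 1 treated and 1 untreated culture in the dyes A647 and A555. There were 8 arrays for SQ1 and 8 for pravastatin, and the treated RNA was in A647 on 4 arrays of each drug and in A555 on the other 4. The design text calls the samples biological replicates; the number of rats behind a culture is not stated in the labels. Same-numbered arrays of the 2 drugs carry the same control number, so the 2 comparisons were taken to share their controls. The values alone did not settle this.

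The deposited table of log ratios did not match its own labels. Under each of the 16, it held the log ratios of that replicate number from the opposite drug's arrays: the correlation across probes was 0.938 to 1.00 with that array and 0.422 to 0.562 with the array of the label. Drug names here follow the scanner files, whose labels and contents were taken as given, and every value given under a drug name rests on that choice. Scans fell on 2 days, with replicates 1, 2, 5 and 6 on the first and 3, 4, 7 and 8 on the second, and each of the 4 slides held 1 drug and 1 day, so drug and slide cannot be told apart. Values are log2 of treated over untreated. Log ratios of single arrays correlated across genes at 0.752 to 0.956 among SQ1 arrays and at 0.568 to 0.910 among pravastatin arrays. All 8 hepatocyte markers, from Alb (albumin) to Cps1 (carbamoyl phosphate synthetase), were measured in both treated and untreated cells.

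Acute phase proteins are secreted by hepatocytes in changed amounts during infection or injury. Interleukin-6 acts through its receptor, JAK kinases and STAT3, and interleukin-1 acts through NF-kB and C/EBP factors, while glucocorticoids strengthen both. Fibrinogen, haptoglobin and alpha-2-macroglobulin are classical interleukin-6 targets, and alpha-2-macroglobulin is a major acute phase protein in the rat, unlike in humans.

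The promoters of the chains and of Crp are shown because the chains fell and Crp rose with SQ1. The sequences are the 250 bases before the annotated start, from RefSeq on build GRCr8, which is not the build of the array files. Entries were found for 7 of the 10 members, namely C3, Crp, Fga, Fgb, Fgg, Lcn2 and Orm1. Capitals mark matches, on either strand, to TTCNNNGAA (a STAT site), CTGGGAA (the core of the type II interleukin-6 response element) and TTNNGNAA (a C/EBP site). The Fga stretch is chr2:170671919-170672168 on the plus strand, Fgb is chr2:170700876-170701125 on the minus strand, Fgg is chr2:170652833-170653082 on the plus strand, and Crp is chr13:87693812-87694061 on the plus strand.
Fga: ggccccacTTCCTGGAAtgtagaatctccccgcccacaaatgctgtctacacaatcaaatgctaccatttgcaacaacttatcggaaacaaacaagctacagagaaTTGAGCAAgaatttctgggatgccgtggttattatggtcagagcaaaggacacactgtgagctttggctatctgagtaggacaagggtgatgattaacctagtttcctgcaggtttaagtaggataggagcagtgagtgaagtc
Fgb: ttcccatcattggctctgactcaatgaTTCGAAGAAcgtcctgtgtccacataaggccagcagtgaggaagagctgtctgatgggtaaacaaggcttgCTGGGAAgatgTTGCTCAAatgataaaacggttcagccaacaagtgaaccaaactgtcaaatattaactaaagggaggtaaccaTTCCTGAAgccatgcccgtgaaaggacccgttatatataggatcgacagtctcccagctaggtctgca
Fgg: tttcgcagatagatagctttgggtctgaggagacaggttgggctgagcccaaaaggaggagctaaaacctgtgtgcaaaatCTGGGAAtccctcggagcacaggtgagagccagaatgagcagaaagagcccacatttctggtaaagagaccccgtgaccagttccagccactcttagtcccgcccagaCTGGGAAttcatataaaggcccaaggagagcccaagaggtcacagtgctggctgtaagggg
Crp: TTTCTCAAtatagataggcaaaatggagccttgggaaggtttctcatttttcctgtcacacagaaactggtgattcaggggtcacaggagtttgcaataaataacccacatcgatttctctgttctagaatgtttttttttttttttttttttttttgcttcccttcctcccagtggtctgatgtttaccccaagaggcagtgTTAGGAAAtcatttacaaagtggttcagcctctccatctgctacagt
TTCNNNGAA occurred in Fga and Fgb, among 7.67% of all 33469 promoters of this length. In Fga the match spans positions -242 to -234 from the start; a second annotated start lies 18 bases downstream, and its window does not contain the match. CTGGGAA occurred in Fgb, in Fgg at 2 places, in C3 and in Lcn2, against 9.56% of promoters. TTNNGNAA occurred in 6 members, all those with an entry except Fgg, against 37.2% of promoters. An HNF1 motif, also searched, matched Fgb at positions -94 to -85 (0.849% of promoters), and an NF-kB motif matched none of these windows (4.36% of promoters). In these windows CTGGGAA occurred both in chains, which fell, and in Lcn2, which rose with SQ1. A match is a run of letters and not a measured binding site.

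With SQ1, all 10 members passed the test (limma, adjusted p under 0.05): A2m, Crp, Lbp and Lcn2 rose, and Fga, Fgb, Fgg, Hp, C3 and Orm1 fell. Of all genes tested, 63.7% passed the same test (32.6% up and 31.2% down), so a call alone says little here, and the sizes matter more. The median log2 change of the members was -0.55, against 0.01 for all genes. With pravastatin, 9 of 10 members passed, 2 up (A2m and Lbp) and 7 down, where 38.9% of all genes did (19.4% up and 19.6% down). Their median log2 change was -0.31, against 0.00 for all genes. Of the members, 7 of 10 passed with a change of at least 1.5-fold with SQ1 (A2m, Crp, C3, Hp and the 3 chains), where 7.41% of all genes did. With pravastatin 1 of 10 did, A2m, where 1.93% of all genes did.

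**Figure D1:**
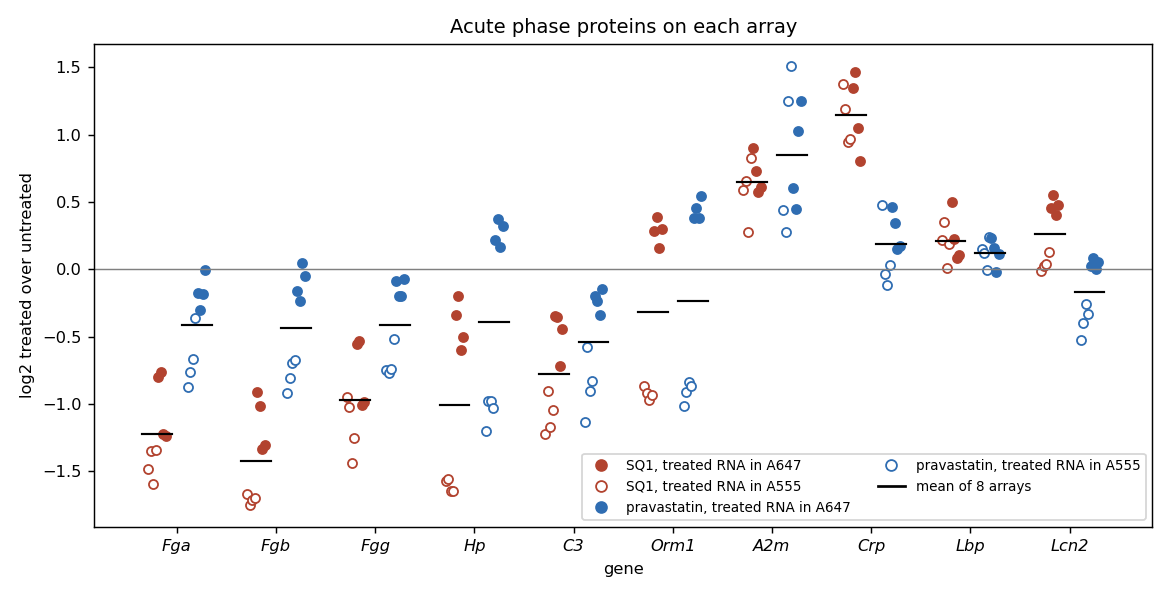
Log2 of treated over untreated for each of the 10 genes (x axis) on each array, SQ1 left and pravastatin right of each position, filled where the treated RNA was in A647 and open where it was in A555, with a black bar at the mean of 8 arrays. The chains, Hp and C3 lie below 0 on all 8 SQ1 arrays, A2m and Crp above 0 on all 8, and the filled and open points of Orm1 and Hp stand apart.

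The fibrinogen chains, which together make the clot-forming protein of plasma, fell with both drugs, and further with SQ1. Fgb, the beta chain, ranged over the SQ1 arrays from -1.75 to -0.91 with a median of -1.50, and over the pravastatin arrays from -0.92 to 0.05 with a median of -0.45. Its signal, in normalised intensity, was 59405 to 115099 in SQ1 cells and 199617 to 248414 in their untreated partners. Every SQ1 culture was below every untreated culture on those arrays, whereas in pravastatin cells the signal of 98515 to 174501 overlapped that of the untreated partners, at 166095 to 215844. The fitted log2 change was -1.42 ± 0.04 (SE, n = 8 arrays, adjusted p = 7.7e-15) with SQ1, a 2.68-fold decrease, and -0.44 ± 0.04 (adjusted p = 3.9e-07) with pravastatin. Only 0.505% of all genes tested had a log2 change with SQ1 as low as that of Fgb or lower.

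Fga, the alpha chain, ranged from -1.59 to -0.76 with a median of -1.29 on the SQ1 arrays. On the pravastatin arrays it ranged from -0.88 to 0.00, median -0.33. All 16 values lay below 0, the highest only just. The fitted log2 change was -1.22 ± 0.06 (adjusted p = 3.2e-12) with SQ1 and -0.42 ± 0.06 (adjusted p = 2.0e-05) with pravastatin. Fgg, the gamma chain, ranged from -1.44 to -0.53 with a median of -0.995 on the SQ1 arrays and from -0.77 to -0.07 with a median of -0.36 on the pravastatin arrays. It was below 0 on all 16 arrays, with a log2 change of -0.97 ± 0.06 (adjusted p = 7.8e-11) with SQ1 and -0.42 ± 0.06 (adjusted p = 1.8e-05) with pravastatin. Within SQ1 arrays the chains kept 1 order: Fgb had the lowest log ratio of the chains on 8 of 8 arrays and Fgg the highest on 8 of 8. On pravastatin arrays each did so on 3 of 8, and the fitted changes of the chains lay between -0.44 and -0.42. The pravastatin values of the chains depended on the dye. With treated RNA in A647 and in A555 the means were -0.10 and -0.77 for Fgb, -0.17 and -0.67 for Fga and -0.14 and -0.69 for Fgg. The A647 arrays alone gave no call with pravastatin (adjusted p = 0.32 for Fgb, 0.15 for Fga and 0.21 for Fgg). With SQ1 the same means were -1.14 and -1.71 for Fgb, -1.01 and -1.44 for Fga and -0.77 and -1.17 for Fgg. With SQ1, Fgg fell further on scan day 2 (-1.17) than on day 1 (-0.77), a difference of -0.41 (adjusted p = 0.00054), where 14.7% of all genes differed between the days.

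Hp codes for haptoglobin, which binds free haemoglobin. It ranged from -1.65 to -0.20 with a median of -1.08 on the SQ1 arrays and from -1.20 to 0.37 with a median of -0.40 on the pravastatin arrays. All SQ1 arrays were below 0, while 4 pravastatin arrays were above and 4 below. The log2 change was -1.01 ± 0.04 (adjusted p = 1.8e-13) with SQ1, a 2.01-fold decrease, and -0.39 ± 0.04 (adjusted p = 4.3e-07) with pravastatin. The split within pravastatin followed the dyes: the mean was 0.27 with treated RNA in A647 and -1.05 with treated RNA in A555, so the direction rests on averaging both orientations. With SQ1 these means were -0.41 and -1.60. With Agilent's processed signals in place of loess, the pravastatin means of Hp were -0.07 and -0.68.

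C3, the central complement component, ranged from -1.22 to -0.35 with a median of -0.81 on the SQ1 arrays. On the pravastatin arrays it ranged from -1.13 to -0.15, median -0.46. It was below 0 on all 16 arrays, and the log2 change was -0.78 ± 0.05 (adjusted p = 2.8e-10) with SQ1 and -0.54 ± 0.05 (adjusted p = 1.8e-07) with pravastatin, the largest fall of a member with that drug. Orm1, alpha-1-acid glycoprotein, ranged from -0.97 to 0.39 with a median of -0.35 on the SQ1 arrays and from -1.01 to 0.55 with a median of -0.23 on the pravastatin arrays. With each drug the 4 arrays with treated RNA in A647 were above 0 (means 0.28 and 0.44) and the 4 in A555 below 0 (means -0.92 and -0.91), so the sign of Orm1 depends on the dye. Averaged over both orientations its log2 change was -0.32 ± 0.03 (adjusted p = 3.7e-08) with SQ1 and -0.23 ± 0.03 (adjusted p = 7.4e-06) with pravastatin. With median centring in place of loess it did not pass, at -0.06 (adjusted p = 0.34) with SQ1 and -0.10 (adjusted p = 0.13) with pravastatin.

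A2m, the protease inhibitor alpha-2-macroglobulin, rose with both drugs. It ranged from 0.28 to 0.90 with a median of 0.63 on the SQ1 arrays and from 0.27 to 1.51 with a median of 0.82 on the pravastatin arrays. Its signal was 58090 to 83434 in SQ1 cells and 35021 to 49834 in their untreated partners, without overlap. In pravastatin cells it was 52407 to 142109, against 38357 to 53657 in their untreated partners, and the groups overlapped slightly. The log2 change was 0.65 ± 0.11 (adjusted p = 6.8e-05) with SQ1, a 1.56-fold increase, and 0.85 ± 0.11 (adjusted p = 1.1e-05) with pravastatin, a 1.80-fold increase. The pravastatin arrays split by scan day, with a mean of 0.44 on day 1 and 1.26 on day 2 and no overlap between the days. The difference of 0.82 passed the test (adjusted p = 0.00085), as 4.96% of all genes did. With SQ1 the means were 0.72 and 0.57, and that difference did not pass (adjusted p = 0.43). The second A2m probe gave means of 0.63 with SQ1 and 0.86 with pravastatin. A2m belongs to a family of similar genes with Mug1, and signal shared between their probes was not tested.

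Crp, C-reactive protein, a pentraxin that is present in rat plasma without inflammation, had the largest rise of a member with SQ1. It ranged from 0.81 to 1.46 with a median of 1.12 on the SQ1 arrays and from -0.12 to 0.47 with a median of 0.16 on the pravastatin arrays. The signal was 42982 to 55214 in SQ1 cells, above the 16885 to 28750 of every untreated partner. The log2 change was 1.14 ± 0.07 (adjusted p = 1.6e-10) with SQ1, a 2.21-fold increase, and 0.18 ± 0.07 with pravastatin, which missed the threshold (adjusted p = 0.052). It passed with the replicate number as a block (adjusted p = 0.037) and without SQ1 replicate 1, 6 or 8 or pravastatin replicate 2 or 3 (adjusted p = 0.029 to 0.047), and 6 of 8 pravastatin arrays were above 0. It also passed with scan day as a term (adjusted p = 0.0035) and with median centring (0.25, adjusted p = 0.0012). Within day 1 the pravastatin value was 0.31 (adjusted p = 0.013), and within day 2 it was 0.06 (adjusted p = 0.38). With SQ1 the rise was smaller on day 2 (0.94) than on day 1 (1.34), a difference of -0.40 (adjusted p = 0.0075).

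Lbp, which carries bacterial lipopolysaccharide to its receptor, ranged from 0.01 to 0.50 with a median of 0.20 on the SQ1 arrays. On the pravastatin arrays it ranged from -0.02 to 0.24, median 0.13. The log2 change was 0.21 ± 0.04 (adjusted p = 0.00039) with SQ1 and 0.12 ± 0.04 (adjusted p = 0.033) with pravastatin. The pravastatin value lost its call without pravastatin replicate 1, 2, 4, 5, 6 or 8 (adjusted p = 0.057 to 0.097). It also lost it with slide as a random block (adjusted p = 0.0996) and within scan day 2 (0.08, adjusted p = 0.18). Neither A647 alone (adjusted p = 0.19) nor A555 alone (adjusted p = 0.14) gave a call with pravastatin. With SQ1, Lbp was 0.32 on day 1 and 0.10 on day 2, a difference of -0.22 (adjusted p = 0.037), and day 2 alone did not pass (adjusted p = 0.088).

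Lcn2, lipocalin-2, which binds bacterial siderophores, moved in opposite directions with the 2 drugs. It ranged from -0.02 to 0.55 with a median of 0.26 on the SQ1 arrays, 7 of 8 above 0, and from -0.52 to 0.08 with a median of -0.13 on the pravastatin arrays, 4 of 8 below 0. Its signal was 165106 to 206072 in SQ1 cells and 131163 to 187944 in their untreated partners, and in pravastatin cells 118024 to 152324 against 128308 to 183440 in theirs. The groups overlapped with each drug. The log2 change was 0.26 ± 0.03 (adjusted p = 1.5e-07) with SQ1 and -0.17 ± 0.03 (adjusted p = 8.2e-05) with pravastatin. The pravastatin mean was 0.04 with treated RNA in A647 and -0.38 in A555, so its direction also rests on both orientations, and with median centring it did not pass (-0.06, adjusted p = 0.49). With treated RNA in A555 alone the SQ1 value was 0.04 and did not pass (adjusted p = 0.48).

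**Figure D2:**
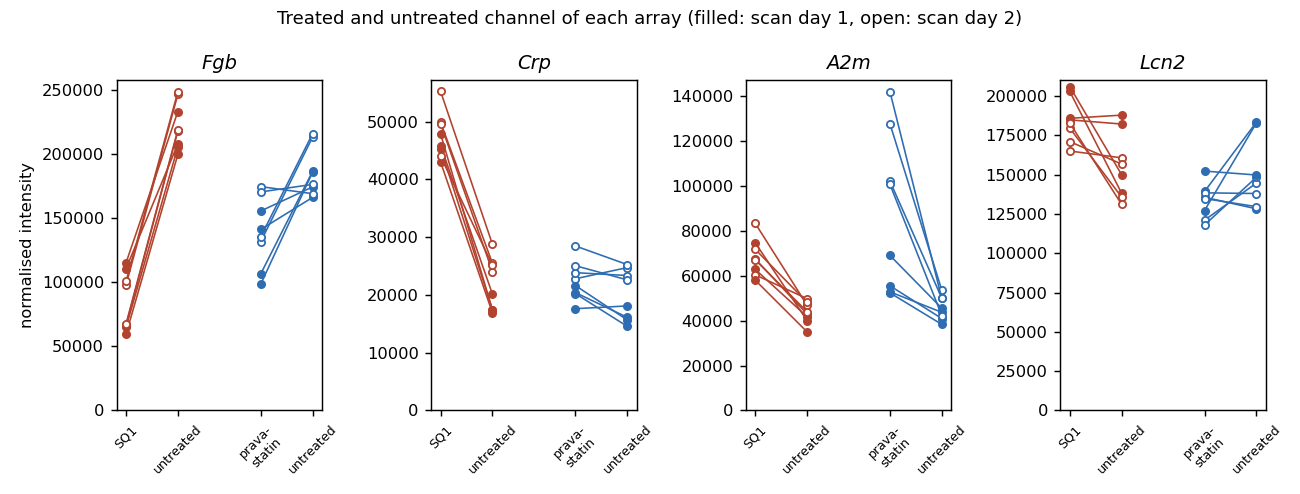
Normalised intensity (y axis, linear from 0) of Fgb, Crp, A2m and Lcn2 in the treated and the untreated channel of each array, joined by a line, with scan day 1 filled and day 2 open. Fgb is below and Crp above the untreated partner on all 8 SQ1 arrays, and the 4 pravastatin arrays of day 2 have the highest A2m.

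The 2 drugs were then set against each other. In SQ1 minus pravastatin, 7 of 10 members passed, with Crp and Lcn2 higher and Fga, Fgb, Fgg, Hp and C3 lower with SQ1, where 37.9% of all genes passed (18.4% higher and 19.5% lower). A difference of at least 1.5-fold was reached by 4 of them, Fga, Fgb, Hp and Crp, and by 4.18% of all genes. The largest differences were -0.99 ± 0.06 for Fgb (adjusted p = 8.1e-10) and 0.96 ± 0.10 for Crp (adjusted p = 6.7e-07). Fga differed by -0.81 ± 0.08 (adjusted p = 4.1e-07), Hp by -0.62 ± 0.06 (adjusted p = 7.65e-08) and Fgg by -0.55 ± 0.08 (adjusted p = 3.3e-05). These chains and Hp were lower with SQ1 in 8 of 8 same-numbered pairs of arrays. Lcn2 differed by 0.43 ± 0.04 (adjusted p = 8.3e-08), higher with SQ1 in 8 of 8 pairs, and C3 by -0.23 ± 0.07 (adjusted p = 0.016), lower in 8 of 8. The C3 difference lost its call when slide was a random block (adjusted p = 0.086) and with median centring (-0.11, adjusted p = 0.24). It also did not pass within scan day 1 (-0.17, adjusted p = 0.31), in A647 alone (adjusted p = 0.061) or in A555 alone (adjusted p = 0.20), fits with fewer arrays. With all arrays scaled to 1 spread the chains and Hp lost both the call and most of the size, at -0.34 for Fgb (adjusted p = 0.45), -0.21 for Fga (adjusted p = 0.65), -0.056 for Fgg (adjusted p = 0.90) and -0.030 for Hp (adjusted p = 0.97). Under that scaling Crp differed by 0.52 (adjusted p = 0.087) and C3 by 0.33 (adjusted p = 0.57). With both dye orientations pooled, Crp was the only member whose SQ1 and pravastatin arrays did not overlap. Its values were 0.81 or above with SQ1 and 0.47 or below with pravastatin. Of all genes, 11.1% did not overlap, a share close to that of the members, so this is no result about Crp. The dye effect was left in. Within A647 and within A555 alone, the chains, Hp and Lcn2 did not overlap between the drugs either. The share of all genes within a single orientation was not counted.

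A2m, Lbp and Orm1 did not pass in this comparison. The 95% interval of the difference was -0.54 to 0.13 for A2m, -0.04 to 0.22 for Lbp and -0.17 to 0.00 for Orm1, so these arrays do not show that the drugs acted alike on them. The A2m difference changed direction between the scan days, at 0.28 (adjusted p = 0.0088) on day 1 and -0.69 (adjusted p = 0.0011) on day 2.

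**Figure D3:**
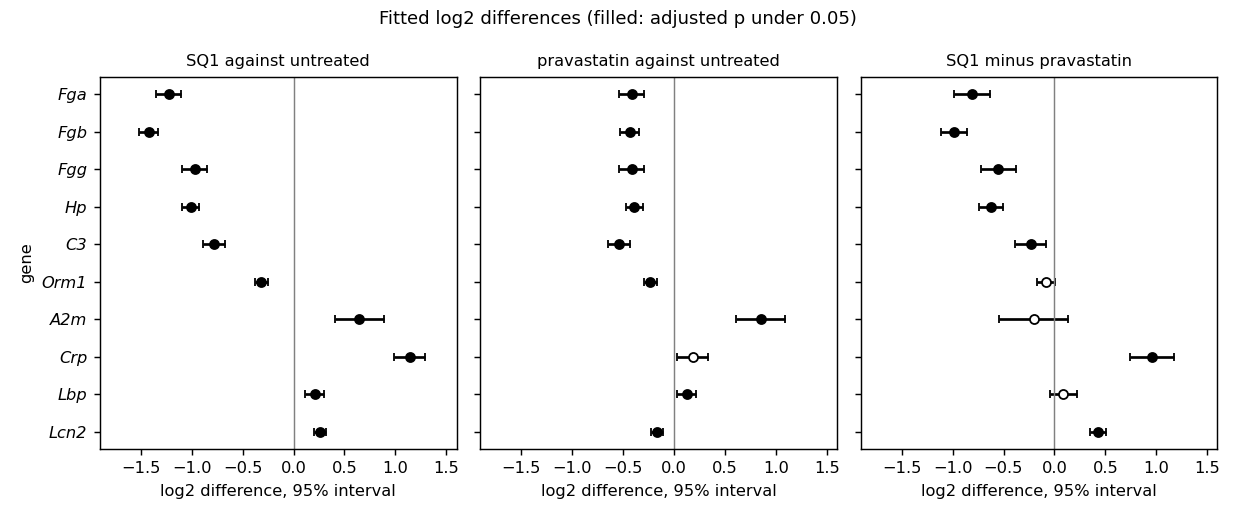
Fitted log2 differences of the 10 genes with 95% intervals, for each drug against its untreated partners (left, middle) and for SQ1 minus pravastatin (right), filled where the adjusted p was under 0.05. The chains run from -1.42 to -0.97 with SQ1 and stay near -0.42 with pravastatin, and the widest intervals are those of A2m.

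The chains were compared with the members that rose, as a description per array with no test, since the rising members are known by their values. With SQ1 the mean of the 3 chains was -1.58 to -0.76 and the mean of A2m, Crp, Lbp and Lcn2 was 0.32 to 0.80. The gap of chains minus rising members was -1.77 ± 0.18 (SD, n = 8 arrays), and every chain was below every rising member on 8 of 8 arrays. With pravastatin the rising members were A2m and Lbp, with a mean of 0.20 to 0.87, and the chains had a mean of -0.85 to -0.04. That gap was -0.91 ± 0.35 (SD, n = 8), and every chain was below both on 7 of 8 arrays. On both scan days the gap kept its sign, at -1.73 and -1.81 with SQ1 and at -0.81 and -1.01 with pravastatin.

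**Figure D4:**
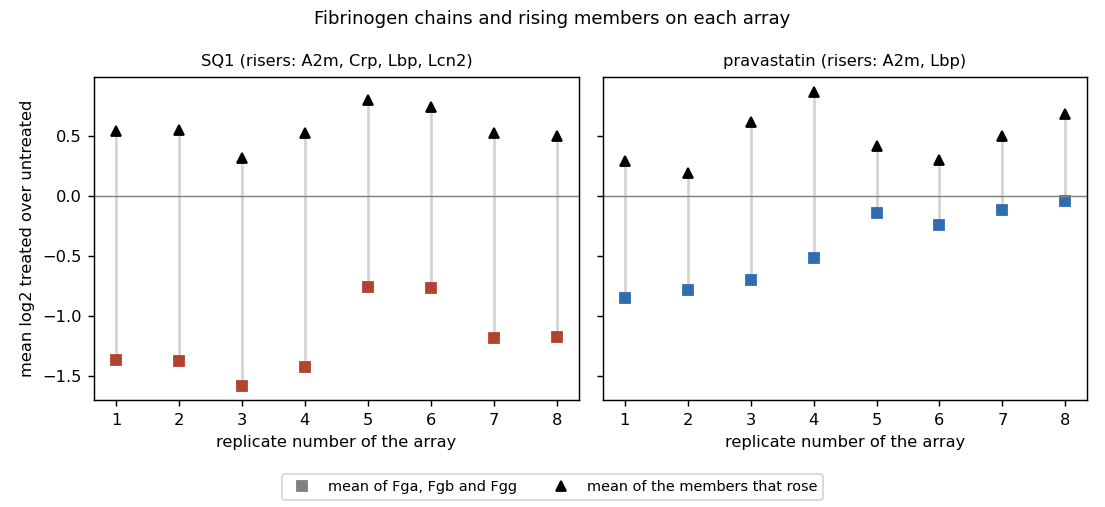
Mean log2 of treated over untreated of Fga, Fgb and Fgg (squares) and of the members that rose with that drug (triangles), per array by replicate number, SQ1 left and pravastatin right. The line between them is the gap, which runs from -1.96 to -1.51 with SQ1 and from -1.39 to -0.55 with pravastatin.

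Within the 8 SQ1 arrays the log ratios, with the dye effect removed, correlated at 0.84 between Fga and Fgb, 0.82 between Fga and Fgg and 0.76 between Fgb and Fgg. Within the 8 pravastatin arrays these were 0.70, 0.84 and 0.40. Crp correlated with Fgg at 0.92 within SQ1 arrays, although Crp rose and Fgg fell: both were higher on the arrays of day 1. Over all 16 arrays the genes outside the members whose log ratios followed the mean of the chains most closely were Kng1 (0.99), Vtn (0.98), Cyp2c12 (0.98), Serpina3n (0.98) and Kng2 (0.98). Kng1 and Kng2 code for kininogens, Vtn for vitronectin and Serpina3n for a serine protease inhibitor, all plasma proteins, and Cyp2c12 for a cytochrome P450. The kininogen genes are close relatives, and signal shared between their probes was not tested. For A2m the closest were Tmem254 (0.92), Pycard (0.87), Timm17b (0.85), Smarca5 (0.81) and Hdac8 (0.79). These are descriptions over arrays that were taken to share untreated cultures and that differ by drug. They say that the genes rank the arrays alike, and the sizes differ: Cyp2c12 had a log2 change of -0.01 with SQ1 and 0.76 with pravastatin.

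Other genes listed as acute phase proteins moved mostly down with SQ1. The lists were chosen by name and are not reference sets. Of 20 further genes listed as positive, all measured, 18 fell and 2 rose with SQ1 (median log2 change -0.75), where 31.2% of all genes fell and 32.6% rose. With pravastatin 12 fell and 2 rose (median -0.16), where 19.6% of all genes fell and 19.4% rose. Serpina3n ranged from -2.20 to -1.11 on the SQ1 arrays and from -0.72 to 0.54 on the pravastatin arrays. Its log2 change was -1.73 ± 0.06 (adjusted p = 3.2e-14) with SQ1 and -0.10 ± 0.06 (adjusted p = 0.21) with pravastatin. Apcs, serum amyloid P, fell by 1.29 with SQ1 and by 0.28 with pravastatin on the log2 scale. Kng2, Ambp (the precursor of alpha-1-microglobulin) and Itih3 (an inter-alpha-inhibitor heavy chain) fell by 0.99, 0.97 and 0.96 with SQ1. With pravastatin they fell by 0.17, 0.37 and 0.43. The sign of Serpina3n, Ambp and Itih3 with pravastatin depended on the dye. Ambp had means of 0.26 with treated RNA in A647 and -1.01 in A555, Itih3 had 0.09 and -0.96, and Serpina3n 0.35 and -0.55. Cp (0.47 and -0.77), Hpx (0.46 and -0.64) and Saa4 (0.24 and -0.44) of the same list did so too. With SQ1, Hpx had 0.20 and -0.76. The counts of this list with each drug therefore rest on averaging both orientations. Kng2 was below 0 in both orientations (-0.02 and -0.33). Vnn1, a pantetheinase, rose by 1.32 ± 0.04 with SQ1 (adjusted p = 1.5e-15), from 1.19 to 1.47 over the arrays, and was 0.07 ± 0.04 with pravastatin (adjusted p = 0.14). Il1rn, the interleukin-1 receptor antagonist, rose by 0.36 and 0.31 with SQ1 and pravastatin, and Hamp, hepcidin, had -0.57 with SQ1 and 0.76 with pravastatin, both passing. Il1rn and Hamp are named because the counts of rising genes contain them, chosen after their values were seen.

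Negative acute phase proteins, which fall during inflammation, fell as well. Of 13 measured of 14 listed, 12 fell and 1 rose with SQ1 (median -0.55), and 10 fell and 2 rose with pravastatin (median -0.26). Of all genes, 31.2% fell and 32.6% rose with SQ1, and 19.6% fell and 19.4% rose with pravastatin. Mug1, murinoglobulin, and Rbp4, the retinol carrier, fell by 1.28 and 1.25 with SQ1 and by 0.36 and 0.68 with pravastatin. Ahsg (fetuin-A), Gc (the vitamin D carrier), F12 (coagulation factor XII) and Tf (transferrin) fell by 0.90, 0.80, 0.66 and 0.66 with SQ1 and by 0.34, 0.45, 0.30 and 0.26 with pravastatin. With pravastatin the sign of Mug1, Gc and Tf depended on the dye. Mug1 had means of 0.14 with treated RNA in A647 and -0.86 in A555, Gc 0.14 and -1.04, and Tf 0.37 and -0.90. Rbp4, Ahsg and F12 were below 0 in both orientations. With SQ1 the sign of Ttr (transthyretin), counted as falling, depended on the dye, at 0.36 in A647 and -0.83 in A555. The counts with each drug rest on averaging both orientations. The lists of positive and negative acute phase proteins thus had medians on the same side of 0 with each drug.

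Of 30 genes of interleukin and glucocorticoid signalling 26 were measured, and 17 fell and 5 rose with SQ1 (median -0.19), while 7 fell and 1 rose with pravastatin (median -0.01). Of all genes 63.7% passed with SQ1 and 38.9% with pravastatin; with pravastatin the share of this list was below that of all genes, so its count is no result about the list. Il6r, the interleukin-6 receptor, ranged from -1.71 to -1.19 on the SQ1 arrays and from -0.42 to -0.08 on the pravastatin arrays. Its log2 change was -1.47 ± 0.05 (adjusted p = 1.1e-14) with SQ1 and -0.23 ± 0.05 (adjusted p = 0.00062) with pravastatin. Cebpd, a C/EBP factor, fell by 0.79 with SQ1 (adjusted p = 6.5e-11) and had 0.03 with pravastatin (adjusted p = 0.61). Fkbp5 and Tsc22d3, both known glucocorticoid targets, fell by 0.71 and 0.70 with SQ1, and had -0.12 and 0.16 with pravastatin, both passing. Stat3 had -0.16 ± 0.04 with SQ1 (adjusted p = 0.0037) and 0.08 ± 0.05 with pravastatin (adjusted p = 0.17, 7 arrays, since 1 lacked a value). Il6 was not tested, as 1 of 32 channels was well above background. Stat3 and Il6 are named as the central genes of the pathway, chosen after their values were seen.

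Markers of macrophages and of stellate cells were measured and moved with the drugs. Of all genes, 31.2% fell with SQ1 and 19.6% with pravastatin. All 15 macrophage and Kupffer cell markers fell with each drug, with a median log2 change of -0.53 with SQ1 and -0.83 with pravastatin. Their summed intensity was 46200 to 70151 in SQ1 cells and 63745 to 116160 in their untreated partners. In pravastatin cells it was 44037 to 52585, against 68868 to 104208 in theirs. Clec4f, a Kupffer cell receptor, had -0.24 with SQ1 and -1.53 with pravastatin. All 9 measured stellate cell and fibroblast markers fell with SQ1 (median -0.60) and 4 of 9 with pravastatin (median -0.12), and their sum was 19545 to 27281 in SQ1 cells and 35420 to 39076 in their untreated partners. In pravastatin cells that sum was 30168 to 36192, against 34817 to 39401 in theirs. Of 4 endothelial markers 3 fell with SQ1 and 1 with pravastatin, and of 5 cholangiocyte markers 1 rose and 2 fell with SQ1 and 2 rose and 1 fell with pravastatin. Of 4 measured neutrophil markers, 1 rose and 2 fell with SQ1 and 2 fell with pravastatin, and the granule genes Elane, Mmp8 and Ltf were above background in at most 2 of 32 channels. With 63.7% of all genes passing with SQ1 and 38.9% with pravastatin, these small counts are no result about endothelial, cholangiocyte or neutrophil markers. Summed intensity in SQ1 cells was only 994 to 1464 for endothelial and 450 to 625 for neutrophil markers. Cholangiocyte markers other than Epcam had medians of 93 (Cftr) to 233 (Spp1). Such dim values do not show that these cells were present. Among hepatocyte markers 8 of 8 fell with SQ1 (median -0.59), and 5 fell and 2 rose with pravastatin (median -0.25). These counts rest on averaging both dye orientations. With SQ1, Ttr had means of 0.36 with treated RNA in A647 and -0.83 in A555. With pravastatin Alb had 0.18 and -0.67, Tf 0.37 and -0.90, Ttr 0.81 and -0.48 and Tat 0.08 and -0.06. Cyp2e1 had -2.00 with SQ1 and -1.66 with pravastatin, and Cps1 had -1.59 and -0.55. Fewer cells of a type and less RNA per cell cannot be told apart in such cultures, and the part of these shifts in the members' values was not tested.

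**Figure D5:**
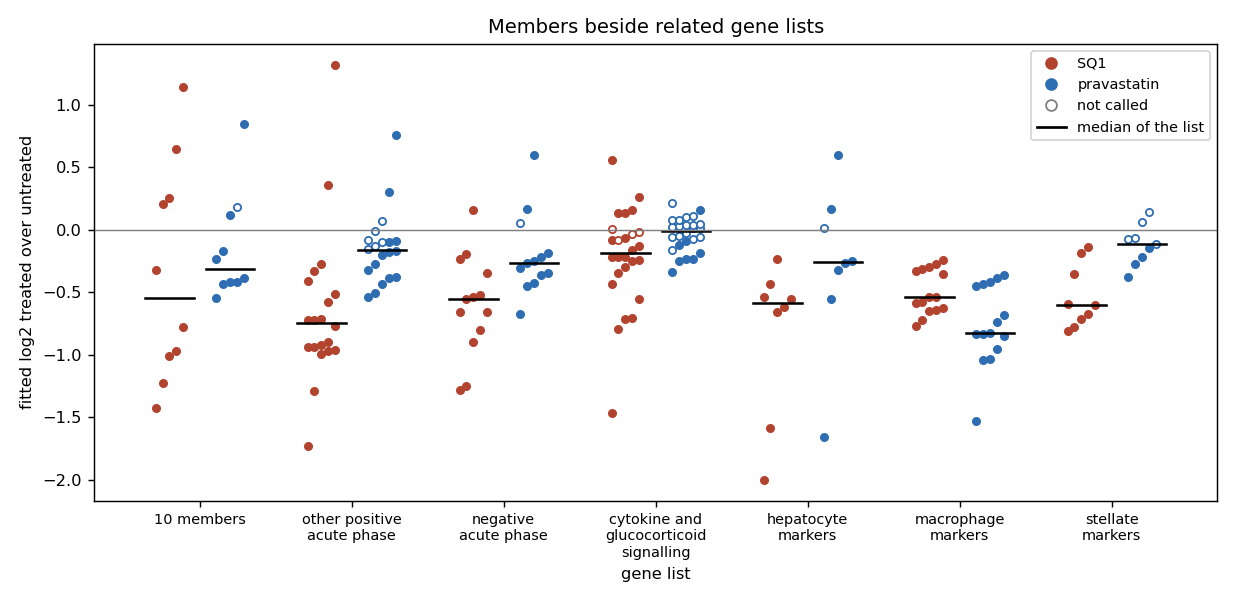
Fitted log2 change with SQ1 (left) and pravastatin (right) for every measured gene of the members, 3 related lists and 3 marker lists, filled where it passed the test, with a bar at the list's median. Most genes of the lists lie below 0 with SQ1. The highest is Vnn1 at 1.32, and the members that rose and some other listed genes also lie above 0.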

How the data were processed

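Arrays were scanned and spots measured with Agilent Feature Extraction, version 10.7.1.1 per the file headers, which name build rn4. The deposited scanner files give median signal and local background of each spot as intensity, and their ratio column is log10 of red over green processed signal, per the file headers. The authors' deposited value table holds log2 of treated over untreated, with its centring not stated (column medians -0.06 to 0.10), and served only as an alternative with the drugs exchanged. Each array had 44254 spots (1377 controls) and 30367 probes; 17998 were named through RefSeq. Non-uniform spots (up to 27 an array) were dropped; no spot was saturated. The array medians of A555 were 588 to 663, with background 306 to 315; those of A647 were 790 to 1076, with background 339 to 348. The number of arrays limits the precision.

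Log ratios were made in R 4.3.3 with limma 3.58.1 and statmod 1.5.0: normexp with offset 50, loess with control spots at weight 0, spots averaged, probes kept when well above background in at least 6 of 32 channel measurements, and for each gene the probe of highest mean signal. Genes that lacked up to 2 arrays were kept (30 genes). That left 20792 genes, 11942 with a symbol. Channel levels were set by Aquantile after loess. One limma fit over all 16 arrays had a term for each drug and for dye; p-values are two-sided and Benjamini-Hochberg adjusted over all genes, with calls under 0.05. The fit was tested on simulated data.

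The members and gene lists were chosen with earlier results of these data known. Named are all 10 members, from each of 3 lists at most the 6 largest changes of at least 1.5-fold in either drug that passed, the 5 symbols that correlate most with the chains and with A2m, and defining markers beside their whole list. Il1rn, Hamp, Stat3 and Il6 are named outside this rule. So are Cp, Hpx, Saa4 and Ttr, for their split by dye, chosen after their values were seen. Scanner file names give same-numbered arrays of both drugs the same control number, and the residual correlation of every such pair was over 0.1 (0.142 to 0.628), so the numbers were taken as pairs. For replicates 2, 7 and 8 the SQ1 array correlated better with a pravastatin array of another number (0.360, 0.391 and 0.330). The residuals alone therefore do not settle the pairs. The main fit had no replicate block, and the block was an alternative. Alternatives changed the signal, normalisation, scaling, filter, probe choice, replicate block, scan day and slide, left out each array, or used the value table.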

Additional observations from a re-analysis of the deposited data

Results flagged for a closer look

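In 4 cases a member's log2 change with 1 drug differed between the 2 scan days by a test of the difference within the fit, a test chosen after A2m had been seen by day. With SQ1 the value of day 2 minus day 1 was -0.41 for Fgg (adjusted p = 0.00054), -0.40 for Crp (adjusted p = 0.0075) and -0.22 for Lbp (adjusted p = 0.037). With pravastatin it was 0.82 for A2m (adjusted p = 0.00085). Of all genes, 14.7% differed between the days with SQ1 and 4.96% with pravastatin. Scan day coincides with the culture series that the control numbers in the file names show and with slides, and these cannot be told apart. In 20 groups of 8 arrays, 1 for each member and drug, 0 held an array that stood apart by Dixon's test. The groups mixed both dye orientations with the dye effect left in, which lay 1.19 to 1.35 apart for Hp and Orm1. Such splits widen a group's range, so the test could hardly flag an array there.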

How the results depend on the processing

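Counts of members that passed were 10 with SQ1, 9 with pravastatin and 7 for SQ1 minus pravastatin. Leaving out 1 array each gave 10 to 10, 8 to 10 and 7 to 7. The random replicate block (correlation 0.392) gave 10, 10 and 7, the gain being Crp with pravastatin, and the fixed replicate block gave 7 for the difference; the block changed no other call. With arrays scaled to 1 spread the difference had 2 members, with the chains, Hp, C3 and Crp losing their calls, and all genes called for it fell to 4321, against 7872. A2m gained a call for the difference (-0.58, adjusted p = 0.021). The same scaling removed the SQ1 calls of C3 (adjusted p = 0.059), Lcn2 (adjusted p = 0.19) and Orm1 (adjusted p = 0.39). It also removed the pravastatin call of Orm1 (adjusted p = 0.073). In arrays with treated RNA in A647 alone, an alternative chosen after seeing the data, pravastatin had 5 members, 4 of them up. All genes called for the difference were 4839 within scan day 1, 5155 with A647 alone and 3972 with A555 alone, and for pravastatin 4017 within scan day 1 and 4804 with A555 alone, against 8090; these fits hold fewer arrays. The chain gap stayed at -1.81 with SQ1 and -0.92 with pravastatin under Agilent's processed signals.

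Single values changed direction as follows. With A647 alone Orm1 was 0.28 with SQ1 and 0.44 with pravastatin, Hp 0.27 and Lcn2 0.041 with pravastatin. For SQ1 minus pravastatin, A2m was 0.28 within scan day 1, Orm1 0.043 with median centring, and with arrays scaled to 1 spread Orm1 was 0.27, C3 0.33 and Lbp -0.020. The cause was not tested. The deposited value table with the drugs exchanged kept 29 of 30 member values on their side of the threshold; Orm1 passed there in the difference (-0.13).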
